A study of Mus musculus with 19 samples.

Results

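The 40 genes described here are regulators of mitosis and the cell cycle: cyclins, cyclin-dependent kinases and their inhibitors, mitotic kinases, spindle checkpoint and kinetochore genes, spindle motors, the proliferation markers Mki67 and Top2a, and 3 transcription factors. They were chosen by symbol from a named list, with earlier results of these data known, and all 40 were found among the 46983 genes of the count table. RNA was sequenced from 19 tumours that had grown in BALB/cAnN mice from implanted 4T1 cells, a mouse mammary carcinoma line, with 1000000 cells implanted per mouse. All groups carried tumours of the same parental line and received 3 antibody doses given 3 days apart, the first 3 days after implantation. Control tumours grew from the line labelled 4T1-Sc and were given IgG (n = 4, replicates 1, 3, 4 and 5) or anti-CTLA-4 (n = 5). LDHA-KD tumours grew from the line labelled 4T1-KD, a knockdown of the lactate dehydrogenase subunit gene Ldha, and were given IgG (n = 5) or anti-CTLA-4 (n = 5), an antibody against an inhibitory receptor of T cells. The labels name 1 line for each arm, so an effect of the knockdown and a difference between the lines cannot be told apart. Whether the replicates were different mice is not stated, and the p-values rest on the spread among these libraries, which may be technical.

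Progress through the cell cycle is driven by cyclin-dependent kinases, each switched on by a partner cyclin. D-type cyclins with CDK4 and CDK6 act in G1, E-type cyclins with CDK2 at the entry to DNA replication, and A- and B-type cyclins with CDK1 in G2 and mitosis. Genes of late G2 and mitosis are transcribed together late in the cycle through CCAAT boxes and an element called the CHR (cell cycle genes homology region), which is bound by the DREAM and MuvB complexes with B-MYB and FOXM1, whereas G1/S genes are controlled mainly by E2F factors. In a tumour, this RNA comes from dividing carcinoma cells and from dividing immune and stromal cells alike. In bulk samples such as these, fewer dividing cells and less RNA per cell cannot be told apart.

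Gene counts per library ran from 31.8 to 43.3 in units of 1000000, and the least abundant member, Ccne1, had at least 182 counts in every library. Levels are given as CPM, the counts per 1000000 after scaling of the library totals. Ldha averaged 1600.0 ± 264 CPM and 1914 ± 257 CPM in the control groups (IgG, anti-CTLA-4) and 485 ± 27.2 CPM and 541 ± 38.2 CPM in LDHA-KD tumours (SD), and every LDHA-KD library lay below every control library. The carcinoma markers Krt8, at 653 to 1305 CPM, and Krt18, at 769.8 to 1971 CPM, were present in all 19 libraries. Of the 9 epithelial markers listed, 4 were lower and 1 was higher in LDHA-KD tumours under IgG. Mean Epcam was 511.7 CPM in control and 111.8 CPM in LDHA-KD tumours there, and mean Krt7 was 474.1 and 121.6 CPM. Mean Cldn4 was 226.3 and 32.45 CPM, while Cldn7 went the other way, at 9.314 and 24.23 CPM. On the second principal component of all tested genes (17.0% of the variance) replicates 3 and 5 of both anti-CTLA-4 groups lay apart from the other libraries. Results that rest on those 4 libraries are given with and without them.

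Most of the 40 members were lower in LDHA-KD than in control tumours under both treatments, by modest amounts. Under IgG, 23 of the 40 members were lower and 2 were higher (edgeR's quasi-likelihood test, adjusted p below 0.05), whereas 17.5% of all 16763 tested genes were lower and 16.8% higher. Under anti-CTLA-4, 24 members were lower and 3 were higher, against 19.8% and 20.2% of all tested genes. All 40 members passed the filter on low counts. The members' median log2 fold change was -0.33 under IgG and -0.34 under anti-CTLA-4, while the median over all tested genes was 0.00 and 0.01. Among the called members, the log2 changes were between 0.24 and 0.72 in size under IgG and between 0.24 and 0.80 under anti-CTLA-4. The 2 comparisons used different libraries but the same 2 lines in 1 model. The share of all tested genes that were lower in both is not given here, so their overlap is not read as particular to the members. All 23 members that were lower under IgG were also lower under anti-CTLA-4. These were Mki67, Top2a, Cdk1, Cdk6, Ccna2, Ccnb1, Ccnb2, Cdc25b, Cdc25c, Aurka, Bub1, Bub1b, Mad2l1, Ttk, Ube2c, Birc5, Cenpa, Tpx2, Kif11, Kif20a, Kif23, Cdkn1b and Cdkn2c. Aurkb was lower under anti-CTLA-4 alone by these calls, Cdk2 was higher in both comparisons, Cdk4 under IgG, and Ccnd2 and Ccne1 under anti-CTLA-4. The other 12, namely Ccnd1, Ccnd3, Ccne2, Plk1, Plk4, Cdc20, Cenpe, Cenpf, Foxm1, Mybl2, E2f1 and Cdkn1a, passed in neither. For 17 members under IgG and 18 under anti-CTLA-4, every LDHA-KD library lay below every control library, which held for 15.2% and 11.6% of all tested genes. Cdk4 under IgG and Cdk2 under anti-CTLA-4 lay wholly above, as 15.1% and 11.6% of all tested genes did. Without the 4 libraries that lay apart, 16 members were lower and 2 higher under anti-CTLA-4, with 2177 genes lower and 2131 higher among all tested genes in that fit, against 3321 and 3390 with them. Scaling by total counts alone moved the median of all genes under anti-CTLA-4 to 0.10, raised the share of higher genes among the calls from 50.5% to 65.2%, and left 18 members lower and 5 higher. Under IgG that share went from 48.9% to 60.5%, with 21 members lower and 3 higher. Of the 16763 tested genes, 2369 were lower and 4445 higher under anti-CTLA-4 by that scaling, and 2251 were lower and 3451 higher under IgG.

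**Figure D1:**
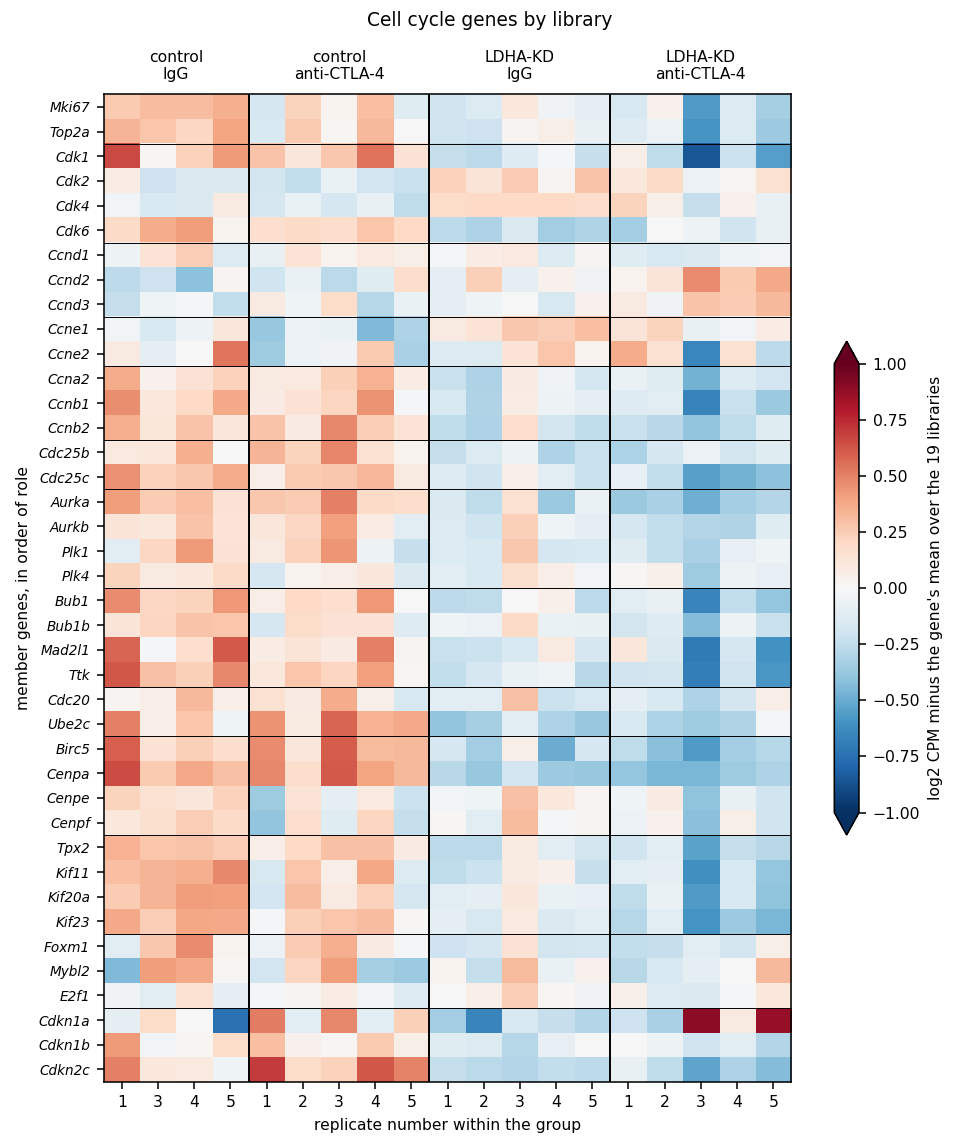
Level of each of the 40 genes (rows, in order of role) in each of the 19 libraries (columns, by group and replicate number), as log2 CPM minus the gene's mean over all libraries. Red is above and blue below that mean, and colours saturate at a difference of 1. Most rows turn from red to blue between the control and the LDHA-KD libraries, Cdk2 and Ccne1 run the other way, and LDHA-KD anti-CTLA-4 replicate 3 is the bluest column.

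**Figure D2:**
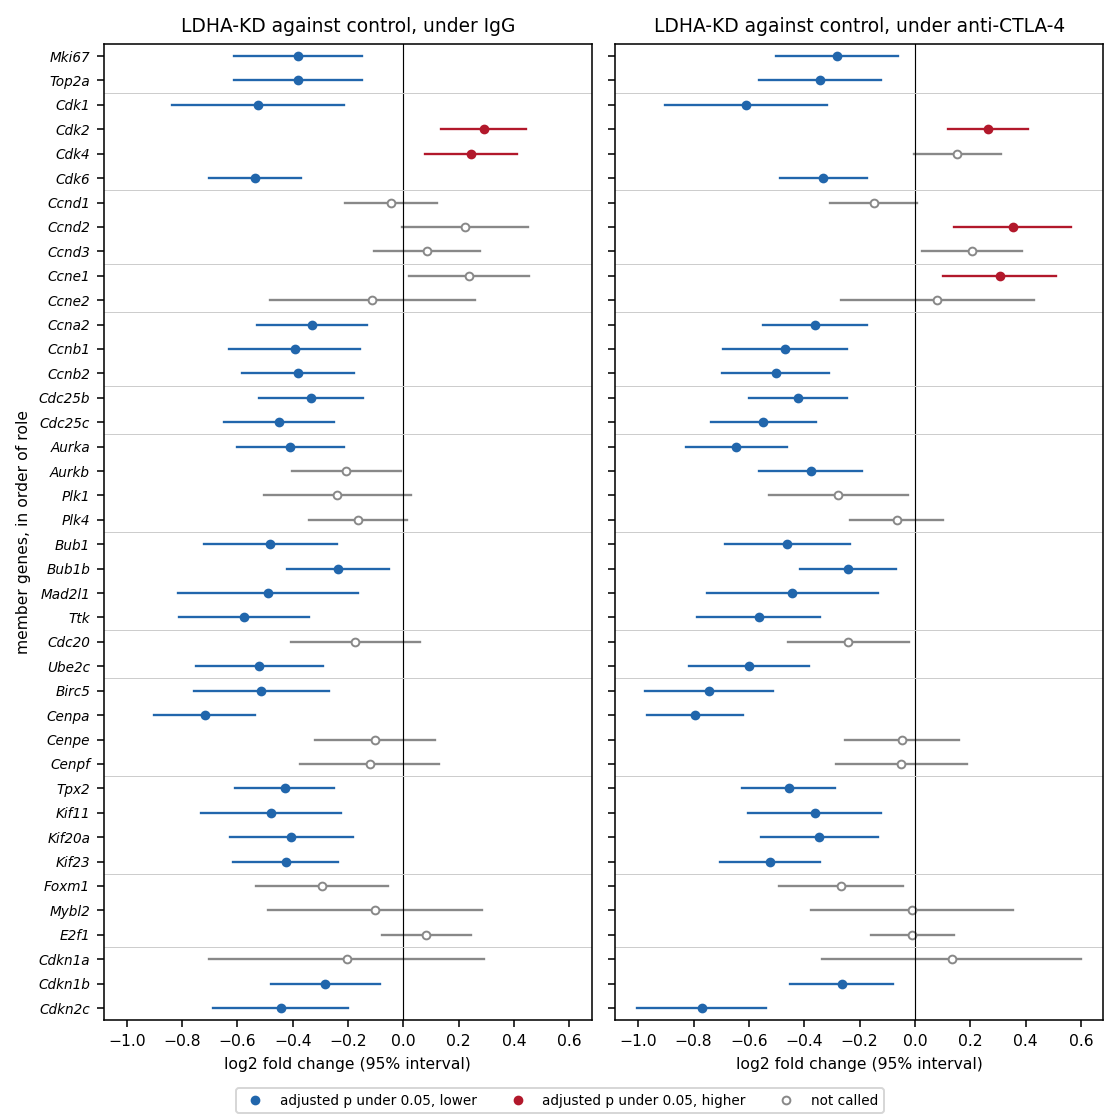
Log2 difference between LDHA-KD and control tumours for each member (dots) with its 95% interval (lines), under IgG on the left and under anti-CTLA-4 on the right. Filled blue dots are lower and filled red dots higher at an adjusted p under 0.05, and open grey dots did not pass. The blue dots are 23 and 24 in number.

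Mki67, the antigen used to stain dividing cells, and Top2a, the topoisomerase that untangles sister chromatids, were both lower in LDHA-KD tumours. Mki67 measured 575, 594, 594 and 614 CPM in control tumours and 417, 434, 515, 467 and 448 CPM in LDHA-KD tumours under IgG. Under anti-CTLA-4, Mki67 measured 426, 558, 491, 590.1 and 441 CPM in control tumours against 428, 494, 324, 435 and 381 CPM in LDHA-KD tumours. For Mki67 under IgG, every LDHA-KD library lay below every control library, while under anti-CTLA-4 the groups overlapped, and 3 of the 5 LDHA-KD libraries lay above the lowest control library. Mki67 was lower in LDHA-KD tumours in both comparisons, and the log2 difference was -0.38 ± 0.11 (SE, adjusted p = 0.0119) with IgG, -0.28 ± 0.11 (SE, adjusted p = 0.0397) with anti-CTLA-4. The Mki67 difference under anti-CTLA-4 no longer passed when any one of LDHA-KD anti-CTLA-4 replicate 3, LDHA-KD anti-CTLA-4 replicate 5, control anti-CTLA-4 replicate 2, control anti-CTLA-4 replicate 3 and control anti-CTLA-4 replicate 4 was left out, at -0.29 to -0.21, with adjusted p from 0.0542 to 0.121. Mki67 did not pass under anti-CTLA-4 with total-count scaling (adjusted p = 0.16, log2 difference -0.19) or with no filter on low counts (adjusted p = 0.0746, log2 difference -0.27) or with only the 2 groups compared in the fit (adjusted p = 0.105, log2 difference -0.28) or without the 4 libraries that lay apart (adjusted p = 0.187, log2 difference -0.21). Top2a levels under IgG were 857, 821, 779 and 888 CPM in control and 589, 585, 691, 703 and 643 CPM in LDHA-KD libraries. Top2a levels under anti-CTLA-4 were 608, 812, 685, 849 and 673 CPM in control and 617, 650.0, 449, 617 and 525 CPM in LDHA-KD libraries. For Top2a under IgG, every LDHA-KD library lay below every control library, while under anti-CTLA-4 the groups overlapped, and 3 of the 5 LDHA-KD libraries lay above the lowest control library. Top2a was lower in LDHA-KD tumours in both comparisons, and the log2 difference was -0.38 ± 0.11 (SE, adjusted p = 0.0118) with IgG, -0.34 ± 0.11 (SE, adjusted p = 0.0142) with anti-CTLA-4. Top2a did not pass under anti-CTLA-4 with total-count scaling (adjusted p = 0.0572, log2 difference -0.25) or without the 4 libraries that lay apart (adjusted p = 0.105, log2 difference -0.27). LDHA-KD anti-CTLA-4 replicate 3 had the lowest value of both genes among all 19 libraries.

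The 4 cyclin-dependent kinases did not all move one way. Cdk1, the mitotic kinase (chromosome 10, 69335146 to 69352938, minus strand), was lower in LDHA-KD tumours, and so was Cdk6, a kinase of G1 (chromosome 5, 3341485 to 3531008, plus strand). Cdk1 stood at 279.6, 179.7, 207 and 238 CPM in the control IgG libraries and at 149.8, 148, 162, 175 and 151 CPM in the LDHA-KD IgG libraries. With anti-CTLA-4, Cdk1 stood at 216, 191, 213, 258 and 196 CPM in control and 184, 148, 97.5, 152 and 121 CPM in LDHA-KD tumours. For Cdk1, every LDHA-KD library lay below every control library under both treatments. Cdk1 was lower in LDHA-KD tumours in both comparisons, and the log2 difference was -0.53 ± 0.15 (SE, adjusted p = 0.00964) with IgG, -0.61 ± 0.14 (SE, adjusted p = 0.00201) with anti-CTLA-4. Without control IgG replicate 1 (adjusted p = 0.0542, log2 difference -0.41), Cdk1 no longer passed under IgG. Cdk6 measured 177, 200.1, 207 and 159 CPM in control tumours and 129, 124, 139.8, 121 and 125 CPM in LDHA-KD tumours under IgG. Under anti-CTLA-4, Cdk6 measured 174, 176, 174, 187 and 178 CPM in control tumours against 122, 154, 149, 135 and 146 CPM in LDHA-KD tumours. For Cdk6, every LDHA-KD library lay below every control library under both treatments. Cdk6 was lower in LDHA-KD tumours in both comparisons, and the log2 difference was -0.54 ± 0.08 (SE, adjusted p = 4.3e-05) with IgG, -0.33 ± 0.08 (SE, adjusted p = 0.00187) with anti-CTLA-4. Cdk2, the partner of cyclins E and A (chromosome 10, 128697939 to 128705031, minus strand), was higher instead, and Cdk4, the other G1 kinase (chromosome 10, 127063534 to 127067920, plus strand), was higher under IgG. Cdk2 levels under IgG were 46.5, 38.3, 40.1 and 39.9 CPM in control and 51.9, 48.3, 52.8, 45.1 and 53.9 CPM in LDHA-KD libraries. Cdk2 levels under anti-CTLA-4 were 38.9, 37.3, 42.3, 38.8 and 37.8 CPM in control and 47.5, 50.6, 42.5, 44.8 and 49.04 CPM in LDHA-KD libraries. For Cdk2 under IgG, the groups overlapped, and LDHA-KD replicate 4 lay below the highest control library, while under anti-CTLA-4 every LDHA-KD library lay above every control library. Cdk2 was higher in LDHA-KD tumours in both comparisons, and the log2 difference was 0.29 ± 0.07 (SE, adjusted p = 0.00466) with IgG, 0.26 ± 0.07 (SE, adjusted p = 0.00492) with anti-CTLA-4. Cdk4 stood at 309, 282, 284 and 334 CPM in the control IgG libraries and at 356, 359.9, 361, 361 and 354 CPM in the LDHA-KD IgG libraries. With anti-CTLA-4, Cdk4 stood at 280.0, 299, 279.6, 298 and 264 CPM in control and 365, 327, 266, 324 and 298 CPM in LDHA-KD tumours. For Cdk4 under IgG, every LDHA-KD library lay above every control library, while under anti-CTLA-4 the groups overlapped, and LDHA-KD replicates 3 and 5 lay below the highest control library. Cdk4 was higher in LDHA-KD tumours with IgG and did not pass with the other antibody, the log2 difference being 0.25 ± 0.08 (SE, adjusted p = 0.022) with IgG, 0.15 ± 0.07 (SE, adjusted p = 0.109) with anti-CTLA-4. Without control IgG replicate 3 (adjusted p = 0.067, log2 difference 0.22) or without control IgG replicate 4 (adjusted p = 0.0668, log2 difference 0.22), Cdk4 no longer passed under IgG. Without LDHA-KD anti-CTLA-4 replicate 3 (adjusted p = 0.0232, log2 difference 0.21), Cdk4 passed under anti-CTLA-4. Cdk4 passed under anti-CTLA-4 with total-count scaling (adjusted p = 0.00959, log2 difference 0.25). The range of Cdk4 in the LDHA-KD IgG libraries was narrow and lay above the control range. Exons of Tspan31 on the opposite strand overlap 19.7% of the exon bases of Cdk4, and the strand setting of the counting is not given in the sources used here, so reads of the 2 genes may not be fully separated.

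The D- and E-type cyclins, which drive G1 and the entry to DNA replication, were not lower in either comparison by the test. Ccnd1 measured 1035, 1179, 1271 and 972 CPM in control tumours and 1064, 1130.0, 1144, 976 and 1090.1 CPM in LDHA-KD tumours under IgG. Under anti-CTLA-4, Ccnd1 measured 1014, 1175, 1096, 1143 and 1113 CPM in control tumours against 985, 956, 969.9, 1038 and 1049 CPM in LDHA-KD tumours. For Ccnd1 under IgG, the groups overlapped, and all 5 LDHA-KD libraries lay above the lowest control library, while under anti-CTLA-4 the groups overlapped, and LDHA-KD replicates 4 and 5 lay above the lowest control library. Ccnd1 passed in neither comparison, at a log2 difference of -0.04 ± 0.08 (SE, adjusted p = 0.708) with IgG, -0.15 ± 0.08 (SE, adjusted p = 0.123) with anti-CTLA-4. The 95% interval of the Ccnd1 log2 fold change was -0.21 to 0.12 under IgG and -0.31 to 0.01 under anti-CTLA-4. Exons of the neighbour LTO1 on the opposite strand overlap 23.4% of the Ccnd1 exon bases. Ccnd2 levels under IgG were 46.4, 48.1, 41.9 and 56.7 CPM in control and 52.2, 65.6, 52.1, 57.3 and 54.2 CPM in LDHA-KD libraries. Ccnd2 levels under anti-CTLA-4 were 48.4, 53.01, 46.2, 51.2 and 62.7 CPM in control and 57.1, 60.6, 77.2, 66.6 and 72.4 CPM in LDHA-KD libraries. For Ccnd2 under IgG, the groups overlapped, and 3 of the 5 LDHA-KD libraries lay below the highest control library, while under anti-CTLA-4 the groups overlapped, and LDHA-KD replicates 1 and 2 lay below the highest control library. Ccnd2 was higher in LDHA-KD tumours with anti-CTLA-4 and did not pass with the other antibody, the log2 difference being 0.22 ± 0.11 (SE, adjusted p = 0.122) with IgG, 0.35 ± 0.10 (SE, adjusted p = 0.00983) with anti-CTLA-4. Without control IgG replicate 5 (adjusted p = 0.0426, log2 difference 0.31), Ccnd2 passed under IgG. Ccnd2 did not pass under anti-CTLA-4 without the 4 libraries that lay apart (adjusted p = 0.0837, log2 difference 0.27). The highest Ccnd2 values were in LDHA-KD anti-CTLA-4 replicates 3, 4 and 5. Ccnd3 stood at 41.7, 47.7, 48.4 and 41.4 CPM in the control IgG libraries and at 46.2, 47.6, 49.3, 43.9 and 50.7 CPM in the LDHA-KD IgG libraries. With anti-CTLA-4, Ccnd3 stood at 52.4, 47.7, 55.7, 40.3 and 46.9 CPM in control and 52.4, 48.01, 59.8, 58.6 and 61.6 CPM in LDHA-KD tumours. For Ccnd3 under IgG, the groups overlapped, and 3 of the 5 LDHA-KD libraries lay below the highest control library, while under anti-CTLA-4 the groups overlapped, and LDHA-KD replicates 1 and 2 lay below the highest control library. Ccnd3 passed in neither comparison, at a log2 difference of 0.09 ± 0.09 (SE, adjusted p = 0.507) with IgG, 0.21 ± 0.09 (SE, adjusted p = 0.0636) with anti-CTLA-4. Without LDHA-KD anti-CTLA-4 replicate 2 (adjusted p = 0.023, log2 difference 0.26) or without control anti-CTLA-4 replicate 3 (adjusted p = 0.0259, log2 difference 0.26), Ccnd3 passed under anti-CTLA-4. Ccnd3 passed under anti-CTLA-4 with total-count scaling (adjusted p = 0.0192, log2 difference 0.30). Values of Ccnd3 were of the same order in all 4 groups. Ccne1 measured 6.83, 6.24, 6.71 and 7.53 CPM in control tumours and 7.39, 7.64, 8.38, 8.24 and 8.55 CPM in LDHA-KD tumours under IgG. Under anti-CTLA-4, Ccne1 measured 5.35, 6.67, 6.64, 5.12 and 5.61 CPM in control tumours against 7.58, 8.10, 6.59, 6.82 and 7.30 CPM in LDHA-KD tumours. For Ccne1 under IgG, the groups overlapped, and LDHA-KD replicate 1 lay below the highest control library, while under anti-CTLA-4 the groups overlapped, and LDHA-KD replicate 3 lay below the highest control library. Ccne1 was higher in LDHA-KD tumours with anti-CTLA-4 and did not pass with the other antibody, the log2 difference being 0.24 ± 0.10 (SE, adjusted p = 0.0863) with IgG, 0.31 ± 0.10 (SE, adjusted p = 0.018) with anti-CTLA-4. Ccne1 passed under IgG with total-count scaling (adjusted p = 0.0428, log2 difference 0.31). Without control anti-CTLA-4 replicate 1 (adjusted p = 0.0534, log2 difference 0.27), Ccne1 no longer passed under anti-CTLA-4. Ccne1 did not pass under anti-CTLA-4 with only the 2 groups compared in the fit (adjusted p = 0.0644, log2 difference 0.31). Ccne1 was the least abundant member. Ccne2 levels under IgG were 27.2, 24.1, 25.6 and 37.1 CPM in control and 23.4, 23.3, 28.1, 30.96 and 26.2 CPM in LDHA-KD libraries. Ccne2 levels under anti-CTLA-4 were 19.99, 24.5, 24.9, 30.6 and 20.4 CPM in control and 32.9, 28.4, 16.3, 28.4 and 21.3 CPM in LDHA-KD libraries. For Ccne2 under IgG, the groups overlapped, and 3 of the 5 LDHA-KD libraries lay above the lowest control library, while under anti-CTLA-4 the groups overlapped, and 4 of the 5 LDHA-KD libraries lay below the highest control library. Ccne2 passed in neither comparison, at a log2 difference of -0.11 ± 0.18 (SE, adjusted p = 0.661) with IgG, 0.08 ± 0.17 (SE, adjusted p = 0.728) with anti-CTLA-4. The spread of Ccne2 among replicates was wide, and the 95% interval of its log2 fold change was -0.48 to 0.26 under IgG and -0.27 to 0.43 under anti-CTLA-4.

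All 3 A- and B-type cyclins, the partners of CDK1 and CDK2 in S phase, G2 and mitosis, were lower in LDHA-KD tumours in both comparisons. Ccna2 stood at 238, 189.9, 204 and 217 CPM in the control IgG libraries and at 158, 149, 195, 179 and 163 CPM in the LDHA-KD IgG libraries. With anti-CTLA-4, Ccna2 stood at 196, 197, 217, 234 and 193 CPM in control and 176, 169, 133, 168 and 161 CPM in LDHA-KD tumours. For Ccna2 under IgG, the groups overlapped, and LDHA-KD replicate 3 lay above the lowest control library, while under anti-CTLA-4 every LDHA-KD library lay below every control library. Ccna2 was lower in LDHA-KD tumours in both comparisons, and the log2 difference was -0.33 ± 0.09 (SE, adjusted p = 0.0111) with IgG, -0.36 ± 0.09 (SE, adjusted p = 0.00354) with anti-CTLA-4. Without control IgG replicate 1 (adjusted p = 0.0518, log2 difference -0.27), Ccna2 no longer passed under IgG. Ccna2 did not pass under anti-CTLA-4 without the 4 libraries that lay apart (adjusted p = 0.0653, log2 difference -0.29). Ccna2 encodes cyclin A (chromosome 3, 36564865 to 36572150, minus strand). Ccnb1 measured 117, 91.2, 97.3 and 109.8 CPM in control tumours and 76.3, 68.9, 89.03, 81.9 and 79.2 CPM in LDHA-KD tumours under IgG. Under anti-CTLA-4, Ccnb1 measured 89.6, 93.5, 98.3, 116 and 83.5 CPM in control tumours against 77.5, 78.3, 53.4, 72.4 and 65.5 CPM in LDHA-KD tumours. For Ccnb1, every LDHA-KD library lay below every control library under both treatments. Ccnb1 was lower in LDHA-KD tumours in both comparisons, and the log2 difference was -0.39 ± 0.11 (SE, adjusted p = 0.0112) with IgG, -0.47 ± 0.11 (SE, adjusted p = 0.00193) with anti-CTLA-4. Ccnb1 encodes the main mitotic cyclin (chromosome 13, 100778650 to 100786570, minus strand). Ccnb2 averaged 92.2 ± 8.03 CPM in control and 70.8 ± 10.1 CPM in LDHA-KD tumours under IgG (SD, n = 4 and 5), and 93.9 ± 10.4 CPM and 66.2 ± 4.52 CPM under anti-CTLA-4 (SD, n = 5 each). For Ccnb2 under IgG, the groups overlapped, and LDHA-KD replicate 3 lay above the lowest control library, while under anti-CTLA-4 every LDHA-KD library lay below every control library. Ccnb2 was lower in LDHA-KD tumours in both comparisons, and the log2 difference was -0.38 ± 0.10 (SE, adjusted p = 0.00511) with IgG, -0.50 ± 0.09 (SE, adjusted p = 0.000295) with anti-CTLA-4. The annotation names a pseudogene each for Ccnb1, Ccnb2 and Ccnd3, with which reads may be shared. The CDC25 phosphatases, which remove inhibitory phosphates from cyclin-dependent kinases, went the same way. Cdc25b averaged 52.3 ± 5.82 CPM in control and 41.5 ± 2.92 CPM in LDHA-KD tumours under IgG (SD, n = 4 and 5), and 56.5 ± 6.86 CPM and 42.2 ± 2.73 CPM under anti-CTLA-4 (SD, n = 5 each). For Cdc25b, every LDHA-KD library lay below every control library under both treatments. Cdc25b was lower in LDHA-KD tumours in both comparisons, and the log2 difference was -0.34 ± 0.09 (SE, adjusted p = 0.00696) with IgG, -0.42 ± 0.09 (SE, adjusted p = 0.000662) with anti-CTLA-4. Cdc25c averaged 22.9 ± 1.62 CPM in control and 16.8 ± 1.37 CPM in LDHA-KD tumours under IgG (SD, n = 4 and 5), and 20.97 ± 1.70 CPM and 14.3 ± 1.91 CPM under anti-CTLA-4 (SD, n = 5 each). For Cdc25c, every LDHA-KD library lay below every control library under both treatments. Cdc25c was lower in LDHA-KD tumours in both comparisons, and the log2 difference was -0.45 ± 0.10 (SE, adjusted p = 0.00116) with IgG, -0.55 ± 0.09 (SE, adjusted p = 0.000108) with anti-CTLA-4.

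**Figure D3:**
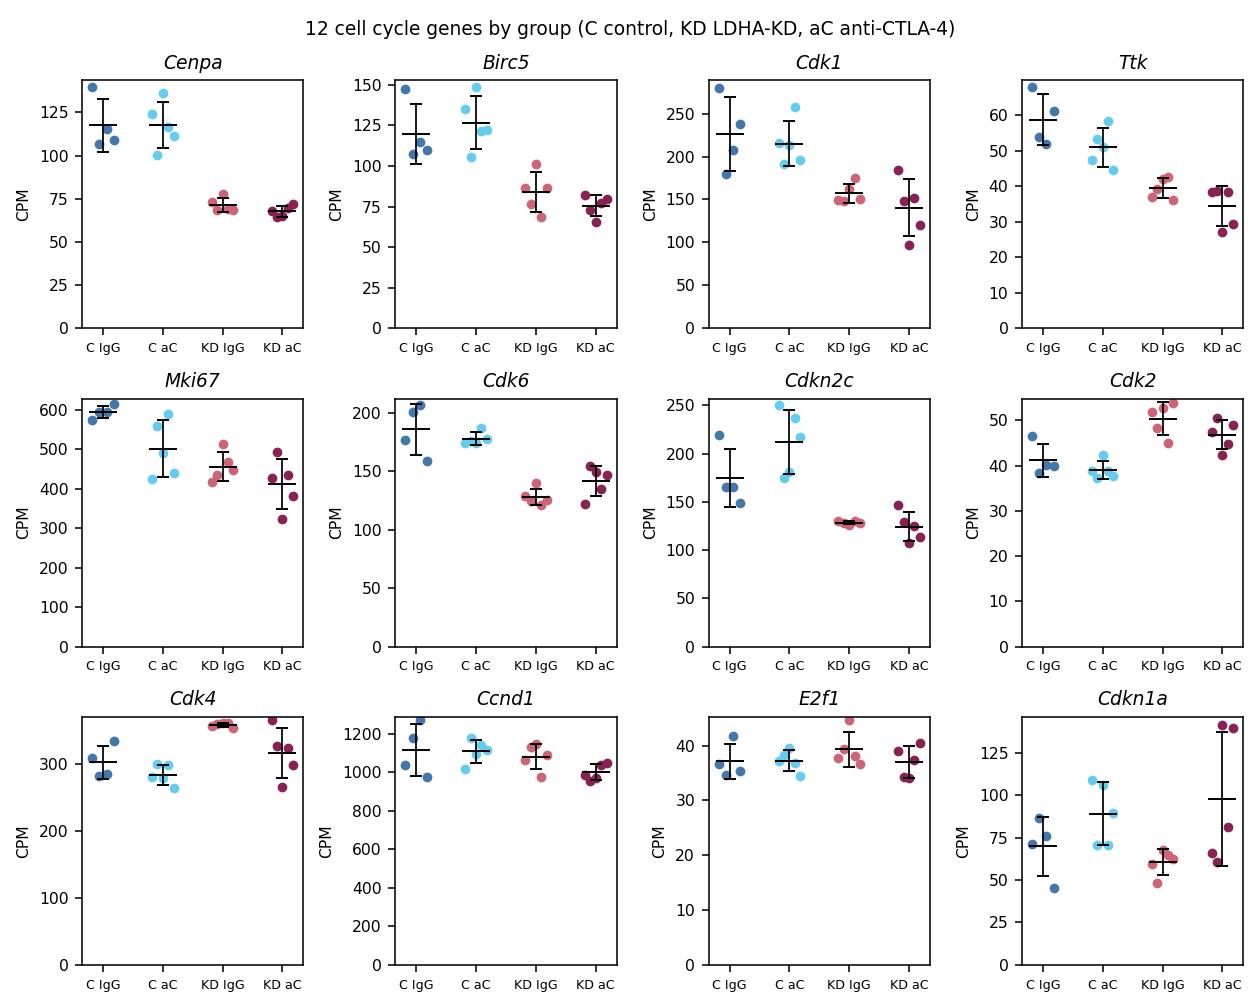
CPM of 12 members in each library (dots), with the mean and SD of each group (black bars), on axes that start at 0. In the upper row and for Mki67, Cdk6 and Cdkn2c the LDHA-KD means lie under the control means, Cdk2 and Cdk4 lie higher in LDHA-KD tumours, Ccnd1 and E2f1 differ little between groups, and 2 LDHA-KD anti-CTLA-4 libraries stand out for Cdkn1a.

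Promoter sequence was compared among the members for the CHR and CCAAT elements of late cell cycle genes and for E2F sites. RefSeq windows of 300 bases on GRCm38.p6, from 250 bases before the gene start to 50 after it, were at hand for 31 members in 34 windows, and not for Aurkb, Ccna2, Ccnd1, Ccnd2, Ccne2, Cdc25c, Foxm1, Kif20a and Tpx2. Both strands were searched. The CHR was looked for as TTTGAA and, in its other accepted form, as TTCGAA. The CCAAT box was looked for by the letters of its name. An E2F site was looked for as TTCCCGC, or in another form as TTCGCGC, or in the form TTGGCGC, which can overlap the reverse strand of a CCAAT box. These 7 genes and the stretches shown were picked after the matches were seen. Stretches of up to 100 bases before the start are printed 5′ to 3′ in the direction of the gene and end before the first annotated exon. CHR and CCAAT matches on either strand are in capitals. A reverse-strand CHR reads TTCAAA here, and a CCAAT box on that strand is printed as ATTGG. Top2a, Kif11, Cdk1 and Ccnb2 show members that were lower in LDHA-KD tumours, Cdc20 a mitotic member that did not pass, and Cdk2 and Cdk4 members that were higher.
Top2a: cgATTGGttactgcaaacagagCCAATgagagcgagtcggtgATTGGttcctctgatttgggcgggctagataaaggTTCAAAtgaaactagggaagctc
Kif11: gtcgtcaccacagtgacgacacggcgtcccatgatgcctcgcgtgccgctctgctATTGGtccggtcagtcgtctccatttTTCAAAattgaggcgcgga
Cdk1: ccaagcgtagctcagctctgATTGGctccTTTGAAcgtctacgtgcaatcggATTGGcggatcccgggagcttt
Ccnb2: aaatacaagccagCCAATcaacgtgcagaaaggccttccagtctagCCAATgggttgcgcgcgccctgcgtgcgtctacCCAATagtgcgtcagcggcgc
Cdc20: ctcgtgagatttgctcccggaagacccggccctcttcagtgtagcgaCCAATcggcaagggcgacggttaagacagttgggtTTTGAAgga
Cdk2: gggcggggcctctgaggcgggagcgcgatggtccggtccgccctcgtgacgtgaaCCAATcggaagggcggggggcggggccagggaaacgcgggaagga
Cdk4: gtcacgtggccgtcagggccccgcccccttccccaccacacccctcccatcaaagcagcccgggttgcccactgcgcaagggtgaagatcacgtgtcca
These stretches lie at chr11:99024190-99024289 (minus strand) for Top2a, chr19:37376282-37376381 (plus strand) for Kif11, chr10:69352939-69353012 (minus strand) for Cdk1, chr9:70421555-70421654 (minus strand) for Ccnb2, chr4:118437353-118437443 (minus strand) for Cdc20, chr10:128705052-128705151 (minus strand) for Cdk2 and chr10:127063435-127063533 (plus strand) for Cdk4.

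A CHR match was found in 16 of 34 member windows (47.1%), against 19.2% of all 32851 windows in the table. The CCAAT box was found in 22 of 34 member windows (64.7%), against 37.4% of all windows, and the E2F letters in 6 of 34 (17.6%), against 8.07%. Every member window with a CHR match also held a CCAAT box, a pair present in 7.52% of all windows. Among the members lower in both comparisons the pair was in 13 of 20 windows, and among the other members in 3 of 14, those of Plk1, Cdc20 and Cenpf. The other members with a window also included Cdk2, Cdk4, Ccnd3, Ccne1 and E2f1, genes of G1 or of the entry to DNA replication. These sets therefore differed in role as well as in call. No test was made of these shares. Top2a had its CHR match nearest to the start 23 bases before it and the next CCAAT box 35 bases farther upstream, Kif11 had them at 19 bases and 26 bases farther, and Cdc20 at 18 bases and 35 bases farther. Cdk1 held a second CHR match 15 bases before the start, beyond the printed stretch. In 8 of the 16 members with a CHR match, the match lay only after the start, Cenpa, Aurka and Ttk among them. Windows of Birc5, Mad2l1 and Cdk6, which were lower in LDHA-KD tumours, held none of the 3 motifs, which says only that these letters are not in these windows.

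**Figure D4:**
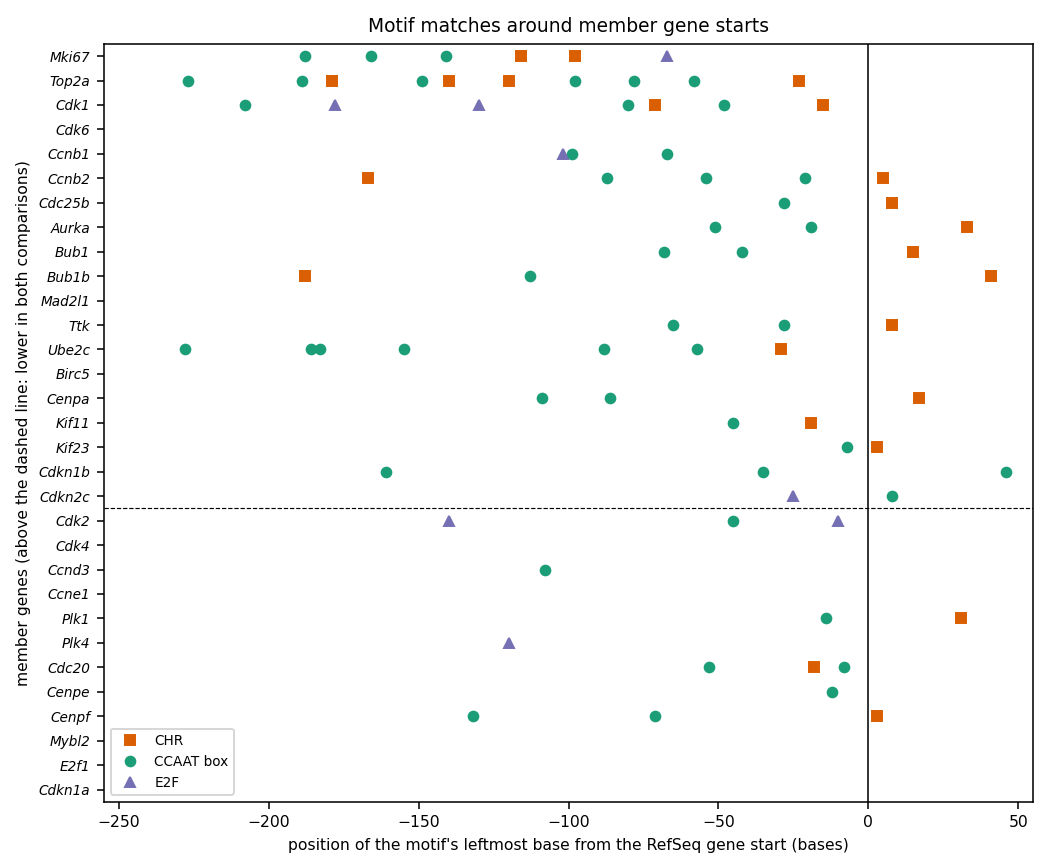
Position of each CHR (orange squares), CCAAT box (green circles) and E2F match (purple triangles) relative to the RefSeq gene start for the 31 members with a window, in bases, with the start at 0. Rows above the dashed line are members lower in LDHA-KD tumours in both comparisons. Each of the 16 members with a CHR match also has a CCAAT box, and 8 members have no match.

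Among the mitotic kinases, Aurka, which matures centrosomes and spindle poles (chromosome 2, 172356190 to 172370535, minus strand), was lower in both comparisons. Aurka levels under IgG were 57.2, 51.3, 52.9 and 47.3 CPM in control and 38.8, 36.00, 47.6, 33.1 and 40.96 CPM in LDHA-KD libraries. Aurka levels under anti-CTLA-4 were 51.6, 51.2, 60.7, 49.1 and 48.4 CPM in control and 33.1, 34.2, 30.5, 33.9 and 35.1 CPM in LDHA-KD libraries. For Aurka under IgG, the groups overlapped, and LDHA-KD replicate 3 lay above the lowest control library, while under anti-CTLA-4 every LDHA-KD library lay below every control library. Aurka was lower in LDHA-KD tumours in both comparisons, and the log2 difference was -0.41 ± 0.09 (SE, adjusted p = 0.002) with IgG, -0.65 ± 0.09 (SE, adjusted p = 1.48e-05) with anti-CTLA-4. Aurkb averaged 45.3 ± 2.63 CPM in control and 39.3 ± 4.81 CPM in LDHA-KD tumours under IgG (SD, n = 4 and 5), and 44.8 ± 5.91 CPM and 34.5 ± 1.90 CPM under anti-CTLA-4 (SD, n = 5 each). For Aurkb under IgG, the groups overlapped, and LDHA-KD replicate 3 lay above the lowest control library, while under anti-CTLA-4 every LDHA-KD library lay below every control library. Aurkb was lower in LDHA-KD tumours with anti-CTLA-4 and did not pass with the other antibody, the log2 difference being -0.21 ± 0.09 (SE, adjusted p = 0.0984) with IgG, -0.38 ± 0.09 (SE, adjusted p = 0.00249) with anti-CTLA-4. Without LDHA-KD IgG replicate 3 (adjusted p = 0.0195, log2 difference -0.28), Aurkb passed under IgG. Aurkb is the kinase of the chromosomal passenger complex. Whether the Aurkb difference itself varied with treatment was tested by the interaction, at -0.17 (SE 0.13, adjusted p = 1). Plk1 stood at 39.5, 49.3, 57.3 and 47.2 CPM in the control IgG libraries and at 38.8, 38.4, 51.4, 38.00 and 38.4 CPM in the LDHA-KD IgG libraries. With anti-CTLA-4, Plk1 stood at 45.4, 50.1, 58.04, 41.2 and 36.5 CPM in control and 39.2, 35.9, 34.1, 40.3 and 41.4 CPM in LDHA-KD tumours. For Plk1 under IgG, the groups overlapped, and LDHA-KD replicate 3 lay above the lowest control library, while under anti-CTLA-4 the groups overlapped, and 3 of the 5 LDHA-KD libraries lay above the lowest control library. Plk1 passed in neither comparison, at a log2 difference of -0.24 ± 0.13 (SE, adjusted p = 0.157) with IgG, -0.28 ± 0.12 (SE, adjusted p = 0.0735) with anti-CTLA-4. Without LDHA-KD IgG replicate 3 (adjusted p = 0.0464, log2 difference -0.33), Plk1 passed under IgG. Without control anti-CTLA-4 replicate 5 (adjusted p = 0.0299, log2 difference -0.34), Plk1 passed under anti-CTLA-4. Plk1, the polo-like kinase of mitotic entry, had a 95% interval of -0.50 to 0.03 under IgG and -0.53 to -0.03 under anti-CTLA-4. Plk4 averaged 87.6 ± 3.80 CPM in control and 78.3 ± 6.95 CPM in LDHA-KD tumours under IgG (SD, n = 4 and 5), and 78.01 ± 6.73 CPM and 74.5 ± 7.78 CPM under anti-CTLA-4 (SD, n = 5 each). For Plk4 under IgG, the groups overlapped, and LDHA-KD replicate 3 lay above the lowest control library, while under anti-CTLA-4 the groups overlapped, and 4 of the 5 LDHA-KD libraries lay above the lowest control library. Plk4 passed in neither comparison, at a log2 difference of -0.16 ± 0.08 (SE, adjusted p = 0.146) with IgG, -0.07 ± 0.08 (SE, adjusted p = 0.538) with anti-CTLA-4. Plk4 starts the duplication of centrioles.

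All 4 spindle checkpoint genes were lower in LDHA-KD tumours in both comparisons. Ttk, the kinase at the head of the checkpoint (chromosome 9, 83834689 to 83872389, plus strand), changed most among them under IgG. Ttk measured 67.8, 54.00, 52.1 and 61.3 CPM in control tumours and 37.1, 39.2, 41.98, 42.7 and 36.3 CPM in LDHA-KD tumours under IgG. Under anti-CTLA-4, Ttk measured 47.3, 53.3, 51.04, 58.5 and 44.6 CPM in control tumours against 38.4, 38.8, 27.2, 38.3 and 29.4 CPM in LDHA-KD tumours. For Ttk, every LDHA-KD library lay below every control library under both treatments. Ttk was lower in LDHA-KD tumours in both comparisons, and the log2 difference was -0.58 ± 0.11 (SE, adjusted p = 0.00057) with IgG, -0.57 ± 0.11 (SE, adjusted p = 0.00037) with anti-CTLA-4. Bub1b, a checkpoint protein that restrains the anaphase-promoting complex, changed least. Bub1b levels under IgG were 73.8, 78.1, 82.2 and 81.8 CPM in control and 65.2, 64.7, 76.9, 64.3 and 63.8 CPM in LDHA-KD libraries. Bub1b levels under anti-CTLA-4 were 59.9, 76.3, 74.4, 74.5 and 61.6 CPM in control and 59.2, 61.6, 49.8, 65.04 and 57.6 CPM in LDHA-KD libraries. For Bub1b under IgG, the groups overlapped, and LDHA-KD replicate 3 lay above the lowest control library, while under anti-CTLA-4 the groups overlapped, and LDHA-KD replicates 2 and 4 lay above the lowest control library. Bub1b was lower in LDHA-KD tumours in both comparisons, and the log2 difference was -0.24 ± 0.09 (SE, adjusted p = 0.0433) with IgG, -0.24 ± 0.08 (SE, adjusted p = 0.027) with anti-CTLA-4. The Bub1b difference under IgG no longer passed when any one of LDHA-KD IgG replicate 1, LDHA-KD IgG replicate 2, LDHA-KD IgG replicate 4, LDHA-KD IgG replicate 5, control IgG replicate 3, control IgG replicate 4 and control IgG replicate 5 was left out, at -0.24 to -0.22, with adjusted p from 0.0821 to 0.0968. Bub1b did not pass under IgG with total-count scaling (adjusted p = 0.188, log2 difference -0.17) or with no filter on low counts (adjusted p = 0.0894, log2 difference -0.23). The Bub1b difference under anti-CTLA-4 no longer passed when any one of LDHA-KD anti-CTLA-4 replicate 3, LDHA-KD anti-CTLA-4 replicate 5, control anti-CTLA-4 replicate 2, control anti-CTLA-4 replicate 3 and control anti-CTLA-4 replicate 4 was left out, at -0.23 to -0.19, with adjusted p from 0.0522 to 0.0801. Bub1b did not pass under anti-CTLA-4 with total-count scaling (adjusted p = 0.202, log2 difference -0.15) or with no filter on low counts (adjusted p = 0.0634, log2 difference -0.23) or with only the 2 groups compared in the fit (adjusted p = 0.0688, log2 difference -0.24) or without the 4 libraries that lay apart (adjusted p = 0.193, log2 difference -0.18). Bub1b values in the LDHA-KD IgG group were close together except replicate 3. Bub1 averaged 82.2 ± 7.98 CPM in control and 58.9 ± 6.61 CPM in LDHA-KD tumours under IgG (SD, n = 4 and 5), and 73.5 ± 8.75 CPM and 53.4 ± 8.36 CPM under anti-CTLA-4 (SD, n = 5 each). For Bub1, every LDHA-KD library lay below every control library under both treatments. Bub1 was lower in LDHA-KD tumours in both comparisons, and the log2 difference was -0.48 ± 0.11 (SE, adjusted p = 0.00298) with IgG, -0.46 ± 0.11 (SE, adjusted p = 0.00236) with anti-CTLA-4. Bub1 is a checkpoint kinase at kinetochores. Mad2l1 averaged 99.7 ± 20.8 CPM in control and 71.03 ± 6.66 CPM in LDHA-KD tumours under IgG (SD, n = 4 and 5), and 87.5 ± 12.7 CPM and 64.4 ± 14.9 CPM under anti-CTLA-4 (SD, n = 5 each). For Mad2l1 under IgG, the groups overlapped, and LDHA-KD replicate 4 lay above the lowest control library, while under anti-CTLA-4 the groups overlapped, and LDHA-KD replicate 1 lay above the lowest control library. Mad2l1 was lower in LDHA-KD tumours in both comparisons, and the log2 difference was -0.49 ± 0.16 (SE, adjusted p = 0.0195) with IgG, -0.44 ± 0.15 (SE, adjusted p = 0.0223) with anti-CTLA-4. Without control IgG replicate 1 (adjusted p = 0.0772, log2 difference -0.41) or without control IgG replicate 5 (adjusted p = 0.0764, log2 difference -0.40), Mad2l1 no longer passed under IgG. Without LDHA-KD anti-CTLA-4 replicate 3 (adjusted p = 0.064, log2 difference -0.35) or without LDHA-KD anti-CTLA-4 replicate 5 (adjusted p = 0.0636, log2 difference -0.37) or without control anti-CTLA-4 replicate 4 (adjusted p = 0.0719, log2 difference -0.35), Mad2l1 no longer passed under anti-CTLA-4. Mad2l1 did not pass under anti-CTLA-4 without the 4 libraries that lay apart (adjusted p = 0.169, log2 difference -0.31). Mad2l1 binds and holds CDC20 while the checkpoint is on.

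The cofactors of the anaphase-promoting complex differed from each other in their calls. Cdc20, its mitotic activator, did not pass in either comparison, while Ube2c, its ubiquitin-conjugating enzyme (chromosome 2, 164769898 to 164778822, plus strand), was lower in both. Cdc20 stood at 63.7, 65.5, 78.6 and 65.7 CPM in the control IgG libraries and at 58.4, 57.8, 76.8, 54.2 and 56.2 CPM in the LDHA-KD IgG libraries. With anti-CTLA-4, Cdc20 stood at 69.6, 66.5, 81.1, 64.9 and 56.05 CPM in control and 58.7, 56.3, 50.5, 55.1 and 65.6 CPM in LDHA-KD tumours. For Cdc20 under IgG, the groups overlapped, and LDHA-KD replicate 3 lay above the lowest control library, while under anti-CTLA-4 the groups overlapped, and 3 of the 5 LDHA-KD libraries lay above the lowest control library. Cdc20 passed in neither comparison, at a log2 difference of -0.17 ± 0.11 (SE, adjusted p = 0.243) with IgG, -0.24 ± 0.10 (SE, adjusted p = 0.0743) with anti-CTLA-4. Without LDHA-KD IgG replicate 3 (adjusted p = 0.0462, log2 difference -0.27), Cdc20 passed under IgG. Without LDHA-KD anti-CTLA-4 replicate 5 (adjusted p = 0.043, log2 difference -0.29) or without LDHA-KD IgG replicate 3 (adjusted p = 0.0408, log2 difference -0.24) or without control anti-CTLA-4 replicate 5 (adjusted p = 0.0343, log2 difference -0.29), Cdc20 passed under anti-CTLA-4. LDHA-KD IgG replicate 3 had a higher Cdc20 level than the other 4 libraries of its group. Ube2c averaged 65.6 ± 11.1 CPM in control and 45.8 ± 3.72 CPM in LDHA-KD tumours under IgG (SD, n = 4 and 5), and 73.4 ± 8.99 CPM and 48.4 ± 5.02 CPM under anti-CTLA-4 (SD, n = 5 each). For Ube2c, every LDHA-KD library lay below every control library under both treatments. Ube2c was lower in LDHA-KD tumours in both comparisons, and the log2 difference was -0.52 ± 0.11 (SE, adjusted p = 0.00116) with IgG, -0.60 ± 0.10 (SE, adjusted p = 0.000175) with anti-CTLA-4. Exons of Tnnc2 on the opposite strand overlap 22.8% of the Ube2c exon bases. The difference between Cdc20 and Ube2c was not tested.

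The largest decrease among the members in both comparisons was that of Cenpa, the histone H3 variant that marks centromeres (chromosome 5, 30666777 to 30674830, plus strand). Cenpa measured 139.9, 107, 115 and 109 CPM in control tumours and 73.3, 68.5, 77.9, 69.3 and 68.5 CPM in LDHA-KD tumours under IgG. Under anti-CTLA-4, Cenpa measured 124, 100.4, 136, 117 and 111 CPM in control tumours against 68.03, 64.7, 64.9, 69.4 and 71.97 CPM in LDHA-KD tumours. For Cenpa, every LDHA-KD library lay below every control library under both treatments. Cenpa was lower in LDHA-KD tumours in both comparisons, and the log2 difference was -0.72 ± 0.09 (SE, adjusted p = 4.39e-06) with IgG, -0.80 ± 0.08 (SE, adjusted p = 6.9e-07) with anti-CTLA-4. Mean Cenpa in LDHA-KD tumours stood at 39.2% under the control level by the IgG fit. Birc5, or survivin, a subunit of the chromosomal passenger complex (chromosome 11, 117849251 to 117855743, plus strand), was lower too. Birc5 levels under IgG were 147, 108, 115 and 109.8 CPM in control and 86.4, 76.4, 101, 68.8 and 86.7 CPM in LDHA-KD libraries. Birc5 levels under anti-CTLA-4 were 135, 105, 148, 121 and 122 CPM in control and 81.8, 72.8, 65.8, 77.05 and 79.9 CPM in LDHA-KD libraries. For Birc5, every LDHA-KD library lay below every control library under both treatments. Birc5 was lower in LDHA-KD tumours in both comparisons, and the log2 difference was -0.51 ± 0.12 (SE, adjusted p = 0.00212) with IgG, -0.74 ± 0.11 (SE, adjusted p = 3.98e-05) with anti-CTLA-4. Cenpe averaged 179 ± 6.88 CPM in control and 167 ± 16.3 CPM in LDHA-KD tumours under IgG (SD, n = 4 and 5), and 150.1 ± 21.4 CPM and 145 ± 17.8 CPM under anti-CTLA-4 (SD, n = 5 each). For Cenpe under IgG, the groups overlapped, and LDHA-KD replicate 3 lay above the lowest control library, while under anti-CTLA-4 the groups overlapped, and 4 of the 5 LDHA-KD libraries lay above the lowest control library. Cenpe passed in neither comparison, at a log2 difference of -0.10 ± 0.10 (SE, adjusted p = 0.476) with IgG, -0.05 ± 0.10 (SE, adjusted p = 0.739) with anti-CTLA-4. Cenpe is the kinetochore motor that aligns chromosomes. Cenpf averaged 154 ± 6.37 CPM in control and 141 ± 16.4 CPM in LDHA-KD tumours under IgG (SD, n = 4 and 5), and 131 ± 23.7 CPM and 126 ± 16.5 CPM under anti-CTLA-4 (SD, n = 5 each). For Cenpf under IgG, the groups overlapped, and LDHA-KD replicate 3 lay above the lowest control library, while under anti-CTLA-4 the groups overlapped, and 4 of the 5 LDHA-KD libraries lay above the lowest control library. Cenpf passed in neither comparison, at a log2 difference of -0.12 ± 0.12 (SE, adjusted p = 0.463) with IgG, -0.05 ± 0.11 (SE, adjusted p = 0.76) with anti-CTLA-4. Cenpf is a large kinetochore protein of G2 and mitosis. The 95% intervals under IgG were -0.32 to 0.11 for Cenpe and -0.37 to 0.13 for Cenpf.

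All 4 genes of spindle assembly and motility were lower in both comparisons. Tpx2 averaged 151 ± 4.39 CPM in control and 112 ± 11.9 CPM in LDHA-KD tumours under IgG (SD, n = 4 and 5), and 141 ± 10.7 CPM and 103 ± 10.8 CPM under anti-CTLA-4 (SD, n = 5 each). For Tpx2, every LDHA-KD library lay below every control library under both treatments. Tpx2 was lower in LDHA-KD tumours in both comparisons, and the log2 difference was -0.43 ± 0.09 (SE, adjusted p = 0.000701) with IgG, -0.46 ± 0.08 (SE, adjusted p = 0.000218) with anti-CTLA-4. Tpx2 activates AURKA on spindle microtubules. Kif11 averaged 135 ± 7.22 CPM in control and 96.9 ± 11.4 CPM in LDHA-KD tumours under IgG (SD, n = 4 and 5), and 112 ± 18.9 CPM and 87.1 ± 12.8 CPM under anti-CTLA-4 (SD, n = 5 each). For Kif11 under IgG, every LDHA-KD library lay below every control library, while under anti-CTLA-4 the groups overlapped, and 3 of the 5 LDHA-KD libraries lay above the lowest control library. Kif11 was lower in LDHA-KD tumours in both comparisons, and the log2 difference was -0.48 ± 0.12 (SE, adjusted p = 0.00477) with IgG, -0.36 ± 0.11 (SE, adjusted p = 0.0173) with anti-CTLA-4. Without LDHA-KD anti-CTLA-4 replicate 3 (adjusted p = 0.0513, log2 difference -0.29) or without control anti-CTLA-4 replicate 4 (adjusted p = 0.0605, log2 difference -0.28), Kif11 no longer passed under anti-CTLA-4. Kif11 did not pass under anti-CTLA-4 with total-count scaling (adjusted p = 0.0668, log2 difference -0.27) or without the 4 libraries that lay apart (adjusted p = 0.0859, log2 difference -0.31). Kif11 is the motor that pushes spindle poles apart. Kif20a averaged 97.3 ± 5.15 CPM in control and 73.4 ± 4.86 CPM in LDHA-KD tumours under IgG (SD, n = 4 and 5), and 79.5 ± 12.4 CPM and 62.6 ± 8.43 CPM under anti-CTLA-4 (SD, n = 5 each). For Kif20a under IgG, every LDHA-KD library lay below every control library, while under anti-CTLA-4 the groups overlapped, and LDHA-KD replicates 2 and 4 lay above the lowest control library. Kif20a was lower in LDHA-KD tumours in both comparisons, and the log2 difference was -0.41 ± 0.11 (SE, adjusted p = 0.00585) with IgG, -0.35 ± 0.10 (SE, adjusted p = 0.0104) with anti-CTLA-4. Kif20a did not pass under anti-CTLA-4 with total-count scaling (adjusted p = 0.0637, log2 difference -0.25) or without the 4 libraries that lay apart (adjusted p = 0.0671, log2 difference -0.29). Kif20a is a motor of the central spindle, and exons of Cdc23 on the opposite strand overlap 29.3% of its exon bases. Kif23 averaged 102 ± 4.63 CPM in control and 75.9 ± 5.72 CPM in LDHA-KD tumours under IgG (SD, n = 4 and 5), and 90.2 ± 9.33 CPM and 62.7 ± 8.03 CPM under anti-CTLA-4 (SD, n = 5 each). For Kif23, every LDHA-KD library lay below every control library under both treatments. Kif23 was lower in LDHA-KD tumours in both comparisons, and the log2 difference was -0.42 ± 0.09 (SE, adjusted p = 0.00129) with IgG, -0.53 ± 0.09 (SE, adjusted p = 0.000102) with anti-CTLA-4. Kif23 is a motor subunit of the centralspindlin complex, which acts in cytokinesis.

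None of the 3 transcription factor members passed in either comparison. Foxm1, the forkhead factor of G2/M genes (chromosome 6, 128362967 to 128376146, plus strand), was near the threshold. Foxm1 stood at 56.9, 73.7, 85.2 and 62.98 CPM in the control IgG libraries and at 53.2, 54.6, 67.8, 54.1 and 54.4 CPM in the LDHA-KD IgG libraries. With anti-CTLA-4, Foxm1 stood at 58.8, 72.9, 78.7, 64.8 and 60.4 CPM in control and 51.6, 52.4, 57.1, 53.98 and 63.9 CPM in LDHA-KD tumours. For Foxm1 under IgG, the groups overlapped, and LDHA-KD replicate 3 lay above the lowest control library, while under anti-CTLA-4 the groups overlapped, and LDHA-KD replicate 5 lay above the lowest control library. Foxm1 passed in neither comparison, at a log2 difference of -0.29 ± 0.11 (SE, adjusted p = 0.0519) with IgG, -0.27 ± 0.11 (SE, adjusted p = 0.0552) with anti-CTLA-4. The Foxm1 difference under IgG passed when any one of LDHA-KD anti-CTLA-4 replicate 5, LDHA-KD IgG replicate 3, control anti-CTLA-4 replicate 3, control IgG replicate 1 and control IgG replicate 5 was left out, at -0.38 to -0.29, with adjusted p from 0.0183 to 0.0485. Foxm1 passed under IgG with DESeq2 (adjusted p = 0.046, log2 difference -0.29) or without the 4 libraries that lay apart (adjusted p = 0.0448, log2 difference -0.29). The Foxm1 difference under anti-CTLA-4 passed when any one of LDHA-KD anti-CTLA-4 replicate 5, LDHA-KD IgG replicate 3, control anti-CTLA-4 replicate 1, control IgG replicate 1 and control IgG replicate 4 was left out, at -0.32 to -0.27, with adjusted p from 0.0339 to 0.0449. Foxm1 passed under anti-CTLA-4 with only the 2 groups compared in the fit (adjusted p = 0.0443, log2 difference -0.27). With the replicate number as a block it passed under IgG (adjusted p = 0.0337, log2 difference -0.29) and under anti-CTLA-4 (adjusted p = 0.0339, log2 difference -0.26). Mybl2 measured 11.1, 20.1, 19.6 and 15.2 CPM in control tumours and 15.4, 12.7, 18.7, 14.4 and 15.5 CPM in LDHA-KD tumours under IgG. Under anti-CTLA-4, Mybl2 measured 13.2, 17.4, 20.1, 11.9 and 11.7 CPM in control tumours against 12.4, 13.4, 14.1, 15.1 and 18.9 CPM in LDHA-KD tumours. For Mybl2 under IgG, the groups overlapped, and all 5 LDHA-KD libraries lay above the lowest control library, while under anti-CTLA-4 the groups overlapped, and all 5 LDHA-KD libraries lay above the lowest control library. Mybl2 passed in neither comparison, at a log2 difference of -0.10 ± 0.18 (SE, adjusted p = 0.708) with IgG, -0.01 ± 0.17 (SE, adjusted p = 0.967) with anti-CTLA-4. Mybl2 encodes B-MYB, and its replicates spread widely. E2f1 levels under IgG were 36.7, 34.7, 41.7 and 35.4 CPM in control and 37.7, 39.4, 44.7, 38.2 and 36.6 CPM in LDHA-KD libraries. E2f1 levels under anti-CTLA-4 were 37.1, 38.3, 39.6, 36.9 and 34.4 CPM in control and 39.1, 34.2, 34.03, 37.3 and 40.6 CPM in LDHA-KD libraries. For E2f1 under IgG, the groups overlapped, and 4 of the 5 LDHA-KD libraries lay below the highest control library, while under anti-CTLA-4 the groups overlapped, and 3 of the 5 LDHA-KD libraries lay above the lowest control library. E2f1 passed in neither comparison, at a log2 difference of 0.08 ± 0.08 (SE, adjusted p = 0.432) with IgG, -0.01 ± 0.07 (SE, adjusted p = 0.932) with anti-CTLA-4. E2f1, the E2F factor of the G1/S switch, had 95% intervals of -0.08 to 0.24 under IgG and -0.16 to 0.14 under anti-CTLA-4.

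None of the 3 inhibitors of cyclin-dependent kinases was higher by the test. Cdkn2c, the p18 inhibitor of CDK4 and CDK6 (chromosome 4, 109660876 to 109667189, minus strand), and Cdkn1b, the p27 inhibitor (chromosome 6, 134920401 to 134925513, plus strand), were lower in LDHA-KD tumours. Cdkn2c stood at 219, 166, 165 and 149 CPM in the control IgG libraries and at 130.2, 128, 126, 130.0 and 128 CPM in the LDHA-KD IgG libraries. With anti-CTLA-4, Cdkn2c stood at 249.8, 175, 181, 237 and 218 CPM in control and 147, 129, 107, 125 and 114 CPM in LDHA-KD tumours. For Cdkn2c, every LDHA-KD library lay below every control library under both treatments. Cdkn2c was lower in LDHA-KD tumours in both comparisons, and the log2 difference was -0.44 ± 0.12 (SE, adjusted p = 0.00614) with IgG, -0.77 ± 0.11 (SE, adjusted p = 2.75e-05) with anti-CTLA-4. The LDHA-KD IgG values of Cdkn2c lay within a narrow range. Cdkn1b measured 220.4, 161, 166 and 187 CPM in control tumours and 151, 149.6, 135, 155 and 164 CPM in LDHA-KD tumours under IgG. Under anti-CTLA-4, Cdkn1b measured 202, 169, 166, 197 and 172 CPM in control tumours against 165, 159, 143, 153 and 134 CPM in LDHA-KD tumours. For Cdkn1b under IgG, the groups overlapped, and LDHA-KD replicate 5 lay above the lowest control library, while under anti-CTLA-4 every LDHA-KD library lay below every control library. Cdkn1b was lower in LDHA-KD tumours in both comparisons, and the log2 difference was -0.28 ± 0.09 (SE, adjusted p = 0.0253) with IgG, -0.26 ± 0.09 (SE, adjusted p = 0.0234) with anti-CTLA-4. Without LDHA-KD IgG replicate 3 (adjusted p = 0.0656, log2 difference -0.24) or without control IgG replicate 1 (adjusted p = 0.137, log2 difference -0.18) or without control IgG replicate 5 (adjusted p = 0.0531, log2 difference -0.27), Cdkn1b no longer passed under IgG. Cdkn1b did not pass under IgG with total-count scaling (adjusted p = 0.051, log2 difference -0.21). The Cdkn1b difference under anti-CTLA-4 no longer passed when any one of LDHA-KD anti-CTLA-4 replicate 3, LDHA-KD anti-CTLA-4 replicate 5, control anti-CTLA-4 replicate 1 and control anti-CTLA-4 replicate 4 was left out, at -0.25 to -0.22, with adjusted p from 0.0531 to 0.0666. Cdkn1b did not pass under anti-CTLA-4 with total-count scaling (adjusted p = 0.0849, log2 difference -0.17) or without the 4 libraries that lay apart (adjusted p = 0.112, log2 difference -0.25). Cdkn1a, the p21 inhibitor and a target gene of p53 (chromosome 17, 29090976 to 29100727, plus strand), varied widely among the LDHA-KD anti-CTLA-4 libraries. Cdkn1a levels under IgG were 71.2, 86.6, 76.02 and 45.4 CPM in control and 59.7, 48.1, 67.9, 64.98 and 62.2 CPM in LDHA-KD libraries. Cdkn1a levels under anti-CTLA-4 were 109, 70.5, 106, 70.8 and 89.6 CPM in control and 65.8, 60.9, 141, 81.1 and 139 CPM in LDHA-KD libraries. For Cdkn1a under IgG, the groups overlapped, and all 5 LDHA-KD libraries lay above the lowest control library, while under anti-CTLA-4 the groups overlapped, and 3 of the 5 LDHA-KD libraries lay below the highest control library. Cdkn1a passed in neither comparison, at a log2 difference of -0.21 ± 0.24 (SE, adjusted p = 0.54) with IgG, 0.13 ± 0.22 (SE, adjusted p = 0.663) with anti-CTLA-4. The highest 2 values were those of LDHA-KD anti-CTLA-4 replicates 3 and 5, which had the lowest Cdk1, Ttk and Kif11 of all libraries and the largest fractions of records in no annotated feature, 13.8% and 12.1%. The part of that share in the levels was not tested.

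Anti-CTLA-4 against IgG gave no call. In control tumours 0 of the 40 members passed, and 0% of all tested genes did so with edgeR. In LDHA-KD tumours 0 members and 0% of all genes passed as well. At an unadjusted p under 0.05 there were 6 members in control tumours, 5 of them lower with anti-CTLA-4, and 9 in LDHA-KD tumours, 6 of them lower. For 0 of the 40 members did the libraries with anti-CTLA-4 lie wholly above or wholly below those with IgG, in control or in LDHA-KD tumours. Over all tested genes they lay above for 0.555% and below for 0.716% in control tumours, and above for 0.817% and below for 0.567% in LDHA-KD tumours. The numbers at an unadjusted p under 0.05 over all tested genes were 1346 and 1987. DESeq2 called 0 members and 11 genes in control tumours and 0 members and 50 genes in LDHA-KD tumours, and limma voom called 0 of either. The members' median log2 fold change was -0.08 in control and -0.12 in LDHA-KD tumours, while the median over all tested genes was -0.003 and -0.005. The value was negative for 29 of the 40 members in control and for 34 in LDHA-KD tumours. The members share libraries and are not independent, and these counts were not tested. In control tumours Kif20a had -0.29 (SE 0.11, unadjusted p = 0.013, adjusted p = 0.601) and Mki67 had -0.25 (SE 0.11, unadjusted p = 0.0399, adjusted p = 0.615), and Cdkn2c had 0.28 (SE 0.12, unadjusted p = 0.0277, adjusted p = 0.601). In LDHA-KD tumours Cdkn1a had 0.69 (SE 0.23, unadjusted p = 0.00635, adjusted p = 0.312), with the anti-CTLA-4 library higher in 84.0% of library pairs. Without the 4 libraries that lay apart, among them LDHA-KD anti-CTLA-4 replicates 3 and 5, Cdkn1a stood at 0.19 (adjusted p = 1). Kif23 had -0.28 (SE 0.09, unadjusted p = 0.00474, adjusted p = 0.312) and Aurka -0.24 (SE 0.09, unadjusted p = 0.0144, adjusted p = 0.329) there. Ccnd3, at 0.24 (SE 0.09, unadjusted p = 0.0124, adjusted p = 0.326), and Ccnd2, at 0.25 (SE 0.10, unadjusted p = 0.0256, adjusted p = 0.364), had positive values, and none of these passed. Without those 4 libraries Kif23 had -0.17 (adjusted p = 1), Aurka -0.22 (adjusted p = 1), Ccnd3 0.16 (adjusted p = 1) and Ccnd2 0.13 (adjusted p = 1) in LDHA-KD tumours, and Kif20a had -0.23 (adjusted p = 0.999), Mki67 -0.18 (adjusted p = 0.999) and Cdkn2c 0.34 (adjusted p = 0.999) in control tumours.

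The interaction, or the response to anti-CTLA-4 of LDHA-KD tumours less that of control tumours, passed for 0 of the 40 members and for 0% of all tested genes with edgeR, and for 0 members and 0 genes with DESeq2 and with limma voom. At an unadjusted p under 0.05 there were 0 members and 415 genes. Cdkn2c had the lowest member value, -0.33 (SE 0.16, unadjusted p = 0.0565, adjusted p = 1), and Aurka had -0.24 (SE 0.13, unadjusted p = 0.0782, adjusted p = 1). The standard errors of the members' interaction values ran from 0.10 to 0.33, so differences of the size seen between LDHA-KD and control tumours would not all be detectable. The comparisons of anti-CTLA-4 with IgG share libraries with those of LDHA-KD with control tumours.

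Other genes of the same machinery were read from lists that hold no member, beside the 17.5% and 19.8% of all genes that were lower. These lists too were chosen with earlier results of these data known. The spindle, kinetochore and cytokinesis list had 35 lower and 0 higher of 50 under IgG (median -0.37) and 41 lower and 2 higher under anti-CTLA-4 (median -0.40). Anln, the anillin of the contractile ring, had -0.77 (adjusted p = 7.43e-07, SE 0.08) under IgG and -0.78 (adjusted p = 2.69e-07, SE 0.08) under anti-CTLA-4, Ckap2l, a spindle protein, -0.74 (adjusted p = 8.18e-07, SE 0.08) and -0.84 (adjusted p = 8.32e-08, SE 0.07), and Tacc3, a spindle protein bound by AURKA, -0.66 (adjusted p = 8.16e-06, SE 0.08) and -0.75 (adjusted p = 1.02e-06, SE 0.08). The G1/S and DNA replication list had 13 lower and 0 higher of 40 under IgG (median -0.20) and 16 lower and 0 higher under anti-CTLA-4 (median -0.24). Rfc3, a subunit of the clamp loader, had -0.88 (adjusted p = 1.17e-05, SE 0.12) and -1.21 (adjusted p = 1.34e-07, SE 0.11), and Mcm7, of the replicative helicase, -0.46 (adjusted p = 0.000248, SE 0.08) and -0.57 (adjusted p = 1.57e-05, SE 0.08). The condensation and cohesion list had 9 lower and 0 higher of 18 under IgG (median -0.21) and 10 lower and 0 higher under anti-CTLA-4 (median -0.24). Ncapg, a condensin subunit, had -0.61 (adjusted p = 0.000106, SE 0.10) and -0.60 (adjusted p = 6.38e-05, SE 0.09). The list of checkpoint kinases and CDC25 control had 10 lower and 0 higher of 16 under IgG (median -0.32) and 9 lower and 1 higher under anti-CTLA-4 (median -0.30). Dbf4, the activating subunit of the CDC7 kinase, had -0.77 (adjusted p = 1.41e-06, SE 0.08) and -0.86 (adjusted p = 1.49e-07, SE 0.08). The list of ubiquitin ligase subunits had 8 lower and 1 higher of 24 under IgG (median -0.12) and 9 lower and 2 higher under anti-CTLA-4 (median -0.14). Anapc4, a scaffold subunit of the anaphase-promoting complex, had -0.63 (adjusted p = 0.0013, SE 0.13) and -0.74 (adjusted p = 0.000163, SE 0.13). The RB, E2F and DREAM list had 5 lower and 2 higher of 18 under IgG (median -0.04) and 4 lower and 4 higher under anti-CTLA-4 (median -0.03). Mybl1, which encodes A-MYB, had -1.24 (adjusted p = 1.23e-08, SE 0.09) and -1.10 (adjusted p = 2.46e-08, SE 0.09), while Rb1, the retinoblastoma gene, was higher under anti-CTLA-4 at 0.61 (adjusted p = 3.24e-05, SE 0.09). The list of other inhibitors of cyclin-dependent kinases had 2 lower and 0 higher of 5 under IgG (median -0.28) and 2 lower and 0 higher under anti-CTLA-4 (median -0.43). Cdkn2d, the p19 inhibitor, had -0.45 (adjusted p = 0.00416, SE 0.11) and -0.55 (adjusted p = 0.000468, SE 0.11). Without the 4 libraries that lay apart, the calls under anti-CTLA-4 fell to 25 in the spindle list, 10 in the replication list, 5 in the condensation list, 6 in the ligase list, 4 in the RB list and 1 among the other inhibitors, while 25.7% of all tested genes were called in that fit. Counted in either direction, the replication, ligase and RB lists and the list of other inhibitors then held no larger share of calls than all tested genes. In that fit 2177 of 16739 genes were lower and 2131 higher. The split of the lists' calls into lower and higher is not given here, so their lower shares were not compared. The share in the condensation list was near that of all tested genes. The list of other inhibitors also had 1 call without LDHA-KD anti-CTLA-4 replicate 5 or without control anti-CTLA-4 replicate 1, 3 or 4.

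Marker genes of other cell types differed along the same contrast. The leukocyte list had 4 of 4 genes higher and 0 lower under IgG and 4 higher and 0 lower under anti-CTLA-4. Its summed level went from 231 to 385 and 298 to 397 CPM (control, IgG and anti-CTLA-4) to 573 to 684 and 531 to 757 CPM (LDHA-KD, same order), without overlap. The T cell list had 6 of 6 genes higher and 0 lower under IgG and 6 higher and 0 lower under anti-CTLA-4. Its summed level went from 7.88 to 20.4 and 19.9 to 38.97 CPM (control, IgG and anti-CTLA-4) to 39.8 to 62.7 and 53.5 to 105 CPM (LDHA-KD, same order). The macrophage list had 5 of 6 genes higher and 0 lower under IgG and 6 higher and 0 lower under anti-CTLA-4. Its summed level went from 1242 to 2183 and 1471 to 1909 CPM (control, IgG and anti-CTLA-4) to 3090.1 to 3485 and 3192 to 3608 CPM (LDHA-KD, same order). The epithelial tumour cell list had 1 of 9 genes higher and 4 lower under IgG and 1 higher and 6 lower under anti-CTLA-4. Its summed level went from 4062 to 5214 and 4021 to 4792 CPM (control, IgG and anti-CTLA-4) to 3139.5 to 3439 and 2171 to 3371 CPM (LDHA-KD, same order). Within that list, the log2 difference under IgG was -2.80 for Cldn4, -2.19 for Epcam and 1.38 for Cldn7. The sum therefore need not follow tumour cell content alone. The endothelial list had 0 of 4 genes higher and 4 lower under IgG and 0 higher and 2 lower under anti-CTLA-4. The fibroblast list had 1 of 5 genes higher and 2 lower under IgG and 3 higher and 0 lower under anti-CTLA-4. The neutrophil list had 0 of 4 genes higher and 0 lower under IgG and 0 higher and 0 lower under anti-CTLA-4. The B cell list, with 1 of 3 genes under the filter, had 0 of 2 genes higher and 0 lower under IgG and 1 higher and 0 lower under anti-CTLA-4. The erythroid list, with 2 of 4 under the filter, had 0 of 2 genes higher and 0 lower under IgG and 0 higher and 0 lower under anti-CTLA-4. No marker was at 0 counts in all libraries. Over the 40 members, the median log2 difference from each gene's mean over the libraries was between 0.142 and 0.244 in control IgG libraries and between -0.166 and 0.0926 in LDHA-KD IgG libraries. With anti-CTLA-4 it was between -0.00676 and 0.237 in control and between -0.408 and -0.121 in LDHA-KD libraries. The lowest value was that of LDHA-KD anti-CTLA-4 replicate 3, the library with the highest leukocyte sum, 757 CPM, and the lowest epithelial sum, 2171 CPM. LDHA-KD IgG replicate 3, at 0.0926, was the only LDHA-KD library above 0, and it had the lowest leukocyte sum of its group. Other libraries followed this order only in part. LDHA-KD IgG replicate 2 had the highest leukocyte sum of its group, 684 CPM, and the lowest member level, -0.166. Control anti-CTLA-4 replicate 5 had the highest sum of its group, 397 CPM, and the lowest level, -0.00676. Replicate 4 of that group had the lowest sum, 298 CPM, and the highest level, 0.237. Elsewhere the order did not hold. LDHA-KD anti-CTLA-4 replicate 2 had the lowest leukocyte sum of its group, 531 CPM, at -0.126, while replicate 1 had 624 CPM at -0.121. Control anti-CTLA-4 replicate 3 had 390 CPM at 0.198, while replicate 1 of that group had 342 CPM at 0.0684. The part of these cell type markers in the members' differences was not tested.

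**Figure D5:**
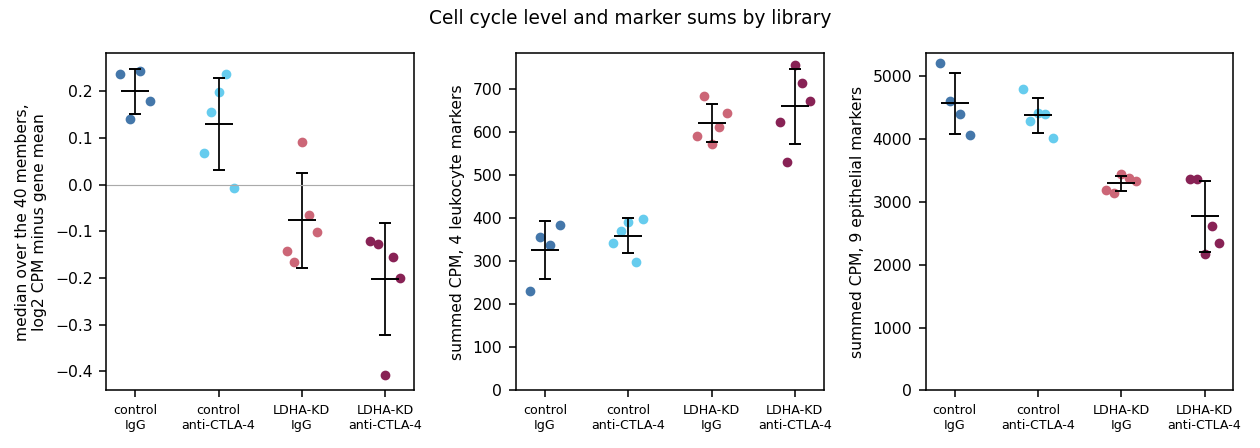
Per library, the median over the 40 members of log2 CPM minus the gene's mean (left), the summed CPM of 4 leukocyte markers (middle) and the summed CPM of 9 epithelial markers (right), by group, with group mean and SD as black bars. The LDHA-KD groups lie lower on the left and right and higher in the middle.

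Levels of different members were compared as CPM per kilobase of annotated exon. In control tumours with IgG, Ccnd1 was the most abundant at a mean of 237, followed by Cdk4 at 93.1 and Top2a at 92.8, then Cdkn2c at 65.03, Ccnb2 at 60.2 and Mki67 at 59.05. Further down the order came Cdk1 at 45.8, Birc5 at 35.2, Ccnb1 at 24.6 and Aurka at 20.6. Ccne1 at 2.56, Mybl2 at 3.55 and Cdc25c at 4.65 were the least abundant. In LDHA-KD tumours with IgG, Ccnd1 and Cdk4 stayed first and second at 229.5 and 110.3 CPM per kilobase, and Ccne1, Mybl2 and Cdc25c stayed last at 3.02, 3.31 and 3.41. Cdk4 and Top2a, neighbours in the control order, did not differ in level beyond their replicate spread there.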

How the data were processed

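Bulk RNA from 19 tumours in 4 groups was analysed from the authors' deposited raw counts per gene, which carry no normalization. Per the submitters' processing notes, HTSeq 0.5.3 and Picard 1.124 were used on build mm10, while their order, the aligner, the strand setting and the annotation release are not given in the sources used here. The 5 summary lines, which held 26.2% to 28.7% of the records of a library, were left out. All pairs of libraries were checked for copies, and the lowest chi-square per gene was 5.40. The counts were tested with edgeR 4.0.16 (R 4.3.3): filterByExpr on the group (16763 of 46983 genes kept), TMM scaling, 1 model over all 19 libraries with 1 coefficient per group, the quasi-likelihood F test, and Benjamini-Hochberg adjustment over all tested genes at 0.05. Alternatives used DESeq2 1.42.0, limma 3.58.1 voom, other scalings, no filter, only the groups compared, the replicate number as a block, a minimum 1.5-fold change, and fits without single libraries or without 4 libraries that lay apart. A floor of 3 counts is 0.0698 to 0.0926 CPM and covers counting error only. Positions, exon lengths and overlaps are from GENCODE M21 on GRCm38, and promoter windows from RefSeq on GRCm38.p6. The members and gene lists were chosen with earlier results of these data known. Every library's value is given for 23 members named for their roles and for the 3 called members with the largest change in each direction per comparison, and genes of other lists are among the 3 with the smallest p of their list.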

Additional observations from a re-analysis of the deposited data

Results flagged for a closer look

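Among the 160 sets of one member in one group, 14 had a library that stood apart from the other libraries of its group by Dixon's criterion. Chance gives about 1 in 20 for a single set. The sets share the same libraries and are not independent, so the count was not set against that rate. LDHA-KD IgG replicate 3 was the library that stood apart in 8 of them, each time with the highest value of its group: Ccnb2 (88.5 CPM against 63.7 to 69.5 CPM), Plk1 (51.4 CPM against 38.00 to 38.8 CPM), Bub1b (76.9 CPM against 63.8 to 65.2 CPM), Cdc20 (76.8 CPM against 54.2 to 58.4 CPM), Cenpf (169 CPM against 126 to 139 CPM), Kif20a (81.97 CPM against 69.97 to 72.6 CPM), Kif23 (85.8 CPM against 71.7 to 75.3 CPM) and Foxm1 (67.8 CPM against 53.2 to 54.6 CPM). The other 6 were spread over 5 libraries. Aurka was higher in control anti-CTLA-4 replicate 3, at 60.7 CPM, than in the others, at 48.4 to 51.6 CPM. Aurkb was higher in control IgG replicate 4, at 49.2 CPM, than in the others, at 43.5 to 44.2 CPM. Mad2l1 was higher in control anti-CTLA-4 replicate 4, at 109.9 CPM, than in the others, at 79.3 to 84.6 CPM. Mad2l1 was higher in LDHA-KD IgG replicate 4, at 82.7 CPM, than in the others, at 66.7 to 69.7 CPM. Cdc20 was higher in control IgG replicate 4, at 78.6 CPM, than in the others, at 63.7 to 65.7 CPM. Kif23 was lower in control IgG replicate 3, at 94.97 CPM, than in the others, at 104 to 105 CPM. No member had an interaction that passed.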

How the results depend on the processing

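The counts of members called were within 1.5 times the reported 25 (IgG) and 27 (anti-CTLA-4) in every alternative, except that asking for at least a 1.5-fold change left 1 and 6. The count over all genes at that fold change is not given here. Leaving out single libraries gave 22 to 28 and 22 to 29 member calls. Over all tested genes those fits gave 4710 to 6023 and 5813 to 7182 calls, against 5752 and 6711 in the main fit. The anti-CTLA-4 comparisons and the interaction stayed at 0 members in all alternatives run, the interaction not being fitted with only 2 groups. Apart from the 1.5-fold change there were 27 alternatives, each a new fit. Of the called members, 19 of 25 under IgG and 17 of 27 under anti-CTLA-4 kept their call in all 27 fits. In these fits 0 called members changed sign. The share of all called genes that kept their call is not given here. Members that were not called changed sign in places. Ccnd1 under IgG, reported at -0.044, went to 0.027 with total-count scaling and -0.10 to 0.025 over fits without one library. Ccne2 under IgG, reported at -0.11, went to -0.18 to 0.040 over fits without one library. Ccne2 under anti-CTLA-4, reported at 0.081, went to -0.030 to 0.21 over fits without one library. Mybl2 under IgG, reported at -0.10, went to -0.25 to 0.011 over fits without one library. Mybl2 under anti-CTLA-4, reported at -0.011, went to 0.082 with total-count scaling, 0.0026 with the replicate block and -0.11 to 0.12 over fits without one library. Plk4 under anti-CTLA-4, reported at -0.066, went to 0.029 with total-count scaling and 0.0030 with the 4 libraries that lay apart left out. Cenpe under anti-CTLA-4, reported at -0.046, went to 0.048 with total-count scaling, 0.013 with the 4 libraries that lay apart left out and -0.11 to 0.017 over fits without one library. Cenpf under anti-CTLA-4, reported at -0.049, went to 0.046 with total-count scaling and -0.12 to 0.030 over fits without one library. E2f1 under anti-CTLA-4, reported at -0.0092, went to 0.087 with total-count scaling, 0.0011 with no filter and -0.043 to 0.020 over fits without one library. Cdkn1a under anti-CTLA-4, reported at 0.13, went to -0.27 with the 4 libraries that lay apart left out and -0.037 to 0.26 over fits without one library. The cause was not tested. With the replicate block, 26 and 28 members were called, and Foxm1 passed in both comparisons (adjusted p = 0.0337 and 0.0339). Over all tested genes that fit called 2943 higher and 2998 lower under IgG, and 3570 higher and 3574 lower under anti-CTLA-4. Deviations from the group means correlated above 0.1 in 14 of 27 pairs of same-numbered libraries (median 0.116) and in 29 of 108 pairs with different numbers (median -0.0422). The main fit did not pair libraries by number. These correlations do not exclude a structure shared by same-numbered libraries, and what the numbers stand for is not stated. Ccne1, with 182 counts in its lowest library, had the least depth, and counting error was not separated from replicate spread.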

Other observations

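Genes that p53 activates, of which Cdkn1a is a member above, were read as a list of 16. The list had 1 lower and 2 higher of 16 under IgG (median 0.05) and 0 lower and 4 higher under anti-CTLA-4 (median 0.02). Over all tested genes, 16.8% and 20.2% were higher, so the list's share of higher genes was near that of all genes. Eda2r, a receptor of the TNF receptor family, was higher at 0.91 (adjusted p = 0.011, SE 0.26) under IgG and 1.59 (adjusted p = 5.99e-05, SE 0.25) under anti-CTLA-4, and Zmat3, an RNA-binding protein gene, at 0.45 (adjusted p = 0.000968, SE 0.09) under anti-CTLA-4. The list had 5 calls under IgG when only the 2 groups entered the fit, 1 call without any of LDHA-KD IgG replicates 2, 4 and 5 or control IgG replicates 1 and 4, and 7 calls under anti-CTLA-4 without LDHA-KD anti-CTLA-4 replicate 1.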
